A study of Mus musculus with 4 samples.

Results

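AA465934 and Gm17167 are a pair of poorly characterised mouse genes whose transcripts were almost absent from the older of 2 single-cell libraries of bone and marrow. They were chosen by symbol, because an earlier count on these data had shown both to be far lower in the library of old cells, and they are 2 of the 32285 genes in the count matrices. Each symbol matched 1 row in both feature lists, AA465934 as ENSMUSG00000093483 and Gm17167 as ENSMUSG00000091542. Since the comparison of the libraries chose them, the size of that difference is a description here and carries no test. The question was whether the difference sat in particular cell types or in the whole library.

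The young library came from 1 INK-ATTAC mouse of 6 months and the old library from 1 of 24 months, both on the C57BL/6N strain and untreated. The INK-ATTAC transgene puts a drug-inducible caspase under a fragment of the promoter of p16 (Cdkn2a), a cell cycle inhibitor that marks senescent cells, and both libraries carried it. Cells were freed from femur and tibia, with bone and marrow combined, depleted of cells bearing blood lineage markers and sorted as live CD45- cells, and an antibody to CD24 was read out beside the RNA. With 1 mouse and 1 library per age, age, mouse, genetic background and library cannot be told apart. All intervals are 95% intervals that cover counting error only. Of 11371 young and 6729 old barcodes, 10063 and 5607 were kept (at least 200 genes and at most 20% mitochondrial UMIs), with 81076421 and 66702846 RNA UMIs and medians of 6385 and 9711 UMIs per cell. A UMI is a molecular tag that lets each captured transcript be counted once. The libraries shared 25 barcode sequences. By lists of marker genes, 84.6% of young and 83.1% of old cells fell into 11 cell groups. The label of mesenchymal cells held for most of these, but erythroid-like, B-lineage-like, neutrophil-like and megakaryocyte-like cells were present in both libraries.

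Long non-coding RNAs are transcripts that are spliced and often polyadenylated like messenger RNA but do not encode a known protein. They tend to be less abundant and more restricted to particular cell types than messenger RNA, and many are known only as gene models. The symbol AA465934 is that of an expressed sequence tag, a fragment of cDNA, and the prefix Gm is given to predicted mouse gene models. No function was assigned to either gene here. RefSeq places AA465934 as a long non-coding RNA on the plus strand of chromosome 11, at chr11:83291699-83294637 (GRCm38.p6, the mm10 build to which the submitters' processing notes refer), a span of 2939 bases. The gene Slfn14 ends 4972 bases before it. RefSeq also has a second long non-coding RNA, AI450353, and the small nucleolar RNA Snord7 over the same stretch. Neither was a row of the matrices, and how reads from the shared bases were counted was not tested. Gm17167 was missing from the RefSeq gene table and is named only.

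The window from 250 bases before to 50 bases after the annotated start of AA465934 is chr11:83291449-83291748 on the plus strand. It is shown because this start belongs to the transcript that was nearly lost in the old library. The capitals mark matches to the motifs searched.
AA465934 promoter: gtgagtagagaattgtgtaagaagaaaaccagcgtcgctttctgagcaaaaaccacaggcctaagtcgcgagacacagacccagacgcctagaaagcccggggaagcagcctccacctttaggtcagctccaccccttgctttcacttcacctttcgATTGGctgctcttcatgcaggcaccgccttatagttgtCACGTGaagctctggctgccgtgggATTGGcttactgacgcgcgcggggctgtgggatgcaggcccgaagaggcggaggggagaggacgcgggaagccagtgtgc
Both strands were searched for CCAAT, for the E-box spelled CACGTG, for the GATA element spelled AGATAA, for the GC box spelled GGGCGG and for the TATA box spelled TATAAA. The first of these occurred at 2 places, at bases 158 and 221 of the window and both times on the minus strand, and 37.4% of the 32851 mouse promoter windows of the same length hold it at least once. The E-box occurred once, at base 196, and 7.15% of windows hold it. The other motifs had no match, which says only that these letters were not in the window. The window held 58% G and C against a median of 52.7% over all windows, and 18 CG pairs against a median of 7. No motif overlapped another.

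In the young library AA465934 was a widely detected transcript, and in the old library it was close to the limit of detection. It had 3302 UMIs in kept young cells, or 40.7 counts per 1000000 RNA UMIs (CPM, 39.3 to 42.1). In kept old cells it had 106 UMIs, or 1.59 CPM (1.3 to 1.92). The share of cells with at least 1 UMI was 22.3% (21.5 to 23.1) in the young library, 2243 cells, and 1.69% (1.37 to 2.07) in the old, 95 cells. The level was therefore 25.6-fold lower in the old library (21.1 to 31.4), a log2 ratio of -4.68. The young cells that held it often held more than 1 copy: 362 had 2 UMIs, 125 had 3 and 99 had 4 or more, up to 13 in 1 cell. Of the 95 old cells, 84 had 1 UMI and 11 had 2, and none had more.

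Gm17167 was the rarer of the pair and differed by as much. It had 708 UMIs in 524 young cells, which was 5.21% of cells (4.78 to 5.66) and 8.73 CPM (8.1 to 9.4). In the old library it had 16 UMIs in 16 cells, which was 0.285% of cells (0.163 to 0.463) and 0.24 CPM (0.137 to 0.39). The level was 36.4-fold lower in the old library (22.3 to 64), a log2 ratio of -5.19. No old cell held more than 1 UMI, whereas 113 young cells did, with up to 7. No single cell carried either result: the richest young cell held 0.394% of the young AA465934 UMIs and 0.989% of those of Gm17167.

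The 2 genes were highest in different cells of the young library. AA465934 was found in every one of the 11 groups. Its level was highest in erythroid-like cells, the nucleated precursors of red cells, at 90.0 CPM (83.9 to 96.4) with a UMI in 78.8% of them, and in B-lineage-like cells at 85.5 CPM (73 to 99.5). These overlapped each other, and both lay above the next group, the tendon-like cells at 41.5 CPM (35.5 to 48.2). Osteoblast-like cells followed at 35.8 CPM, stromal-like cells of the Lepr and Cxcl12 type at 32.9, fibroblast-like cells at 29.5, pericyte-like cells at 27.7, megakaryocyte-like cells at 26.3, chondrocyte-like cells at 24.6 and joint-lining-like cells at 19.5. From tendon-like cells downward each group's interval overlapped that of the next. Neutrophil-like cells came last with 1 UMI in 98 cells, 2.72 CPM (0.0688 to 15.1), at a median depth of 2867 UMIs per cell.

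Gm17167 had its highest young levels in stromal-like, fibroblast-like and tendon-like cells. Its level was 16.6 CPM (14.9 to 18.5) in stromal-like cells, above the 10.9 CPM (9.6 to 12.3) of fibroblast-like cells, and tendon-like cells at 8.84 CPM (6.19 to 12.2) overlapped the latter. Stromal-like and fibroblast-like cells held 46.6% and 37.1% of its young UMIs. Osteoblast-like cells had 2.56 CPM (1.49 to 4.09). Erythroid-like cells, where AA465934 was highest, had 3 UMIs of Gm17167 in 354 cells or 0.334 CPM (0.0688 to 0.975), although their median of 20330 UMIs per cell was the deepest of the 11 groups. No UMI was found in 225 chondrocyte-like cells or 66 megakaryocyte-like cells, which allows levels of up to 1.71 and 3.47 CPM.

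**Figure D1:**
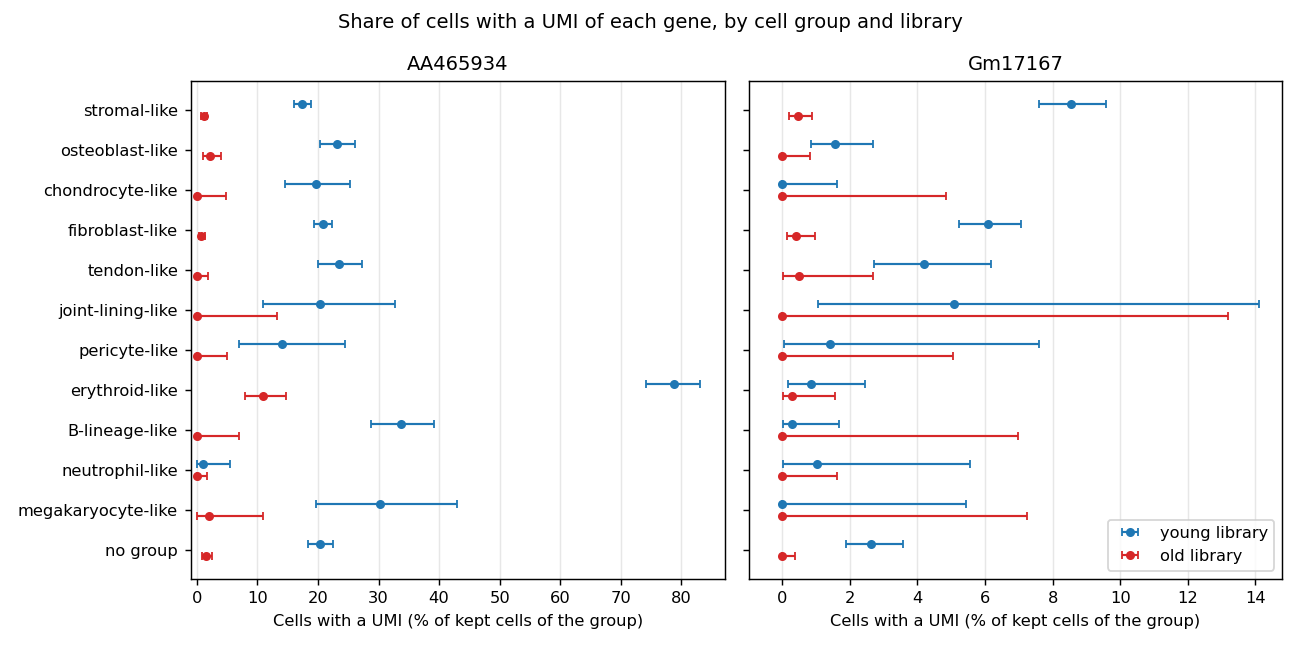
Share of kept cells with at least 1 UMI (percent, horizontal axis) of AA465934 (left) and Gm17167 (right) in each cell group of the young library (blue) and the old library (red); points are shares and bars exact 95% binomial intervals. The young AA465934 point lies to the right of the old one in every group, with 78.8% against 11% in erythroid-like cells, whereas the Gm17167 points separate in stromal-like (8.54% against 0.464%), fibroblast-like, tendon-like and osteoblast-like cells and in the cells in no group.

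The lower level of AA465934 in the old library was seen across cell types. The old level was below the young one, with counting intervals apart, in 10 of 11 groups, and in every one of the 10 groups that held 10 or more young UMIs. The exception was the neutrophil-like group, with 1 young and 0 old UMIs. The gene was chosen for its lower old sum and this limit uses young UMIs only, so the choice in part fixes these counts. In stromal-like cells 654 young UMIs stood against 23 old ones, 24.8-fold lower (16.4 to 39.4). In osteoblast-like cells 238 stood against 12, 21.7-fold lower (12.2 to 42.6). In fibroblast-like cells 712 stood against 9, 52.7-fold lower (27.6 to 116). Erythroid-like cells kept the most, with 47 UMIs in 39 of 356 old cells against 809 in 279 of 354 young ones, and were 18.1-fold lower (13.5 to 24.9). Thus the erythroid-like and the fibroblast-like intervals did not overlap, and the other groups with a fold overlapped one or both.

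In 6 groups the old library had no UMI of AA465934 at all. For a fold the 0 was set to 3 UMIs, and the lower end of the counting interval is given beside it. Tendon-like cells (169 young UMIs) were 36.5-fold lower (29.3 or more) and B-lineage-like cells (166 UMIs) 15.2-fold lower (12.2 or more). Chondrocyte-like cells (53 UMIs) were 10.2-fold lower (7.97 or more). Pericyte-like cells (11 UMIs) were 6.7-fold lower (4.58 or more) and joint-lining-like cells (14 UMIs) 3.29-fold lower (2.34 or more). Megakaryocyte-like cells had 28 young UMIs and 1 old UMI, a ratio of 27.9 (4.61 to 1141). The cells in no group had 447 and 14 UMIs and were 25.7-fold lower (15.2 to 47.4).

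Gm17167 was likewise lower in each of the 4 groups in which it held 10 or more young UMIs, a count that its choice in part fixes too. Stromal-like cells had 330 young and 9 old UMIs, 32-fold lower (16.7 to 70.6). Fibroblast-like cells had 263 and 5, 35-fold lower (14.8 to 109). Tendon-like cells had 36 and 1, a ratio of 23.3 (3.92 to 946). Osteoblast-like cells had 17 and 0, which was 6.2-fold lower (4.51 or more) with the 0 set to 3 UMIs. The other 7 groups held at most 3 young UMIs each, so a difference there was not detectable at this depth. The deep erythroid-like cells held 1 old UMI. The old share of 0.464% of stromal-like cells (0.212 to 0.878) was within the interval of the young share in erythroid-like cells, 0.847% (0.175 to 2.46). Of the 16 old UMIs, 9 lay in stromal-like cells, 5 in fibroblast-like and 1 in tendon-like cells, the groups with the highest young levels, and the part of free RNA in them was not tested.

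The comparison was repeated at a fixed mix of cells. If every old cell group, and the cells in no group, had held each gene at its young level, the old library would have had 2763 UMIs of AA465934 and 558 of Gm17167. It had 106 and 16, which was 3.84% and 2.87% of those sums.

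The share of cells with a UMI depends on depth, and the old cells had the higher median, so shares were also set side by side at like depth. Among cells of 5000 to 10000 RNA UMIs, AA465934 was found in 22.3% of young and 1.12% of old cells. Among cells of 20000 or more, many of them erythroid-like, it was found in 70.4% and 5.42%. Gm17167 was found in 5.75% and 0.177% of cells of 5000 to 10000 UMIs, and in 3.97% and 0.695% of the deepest cells. After thinning every cell to 2000 UMIs, which left out 770 young and 496 old cells as too shallow, AA465934 was found in 6.87% of young cells (6.36 to 7.4) and 0.411% of old cells (0.255 to 0.627). The thinned shares of Gm17167 were 2.14% (1.86 to 2.46) and 0.0196% (0.000495 to 0.109), the latter 1 cell.

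**Figure D2:**
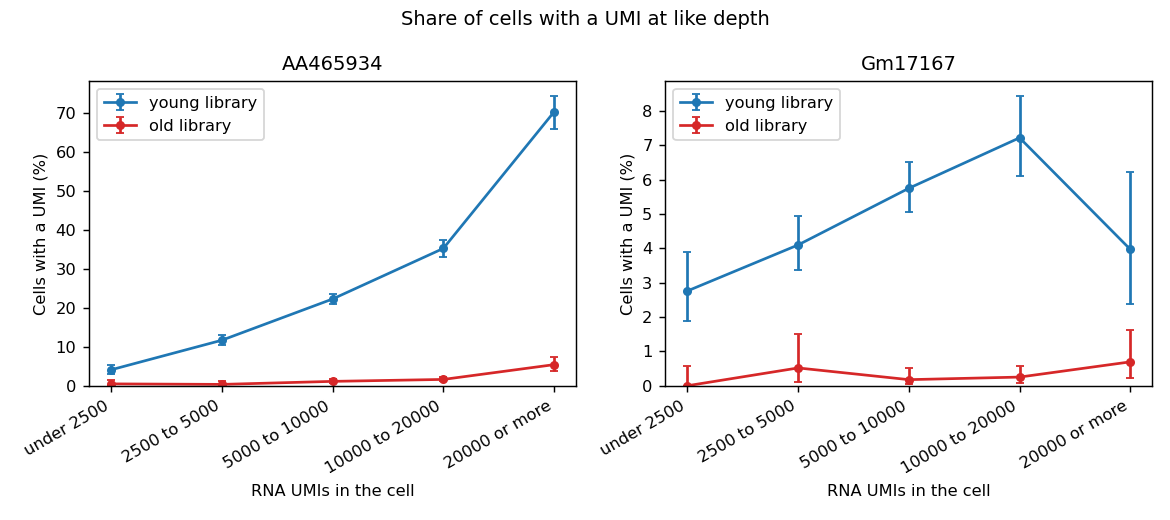
Share of kept cells with at least 1 UMI (percent, vertical axis) of AA465934 (left) and Gm17167 (right) in 5 ranges of RNA UMIs per cell (horizontal axis) in the young (blue) and old (red) library, with exact 95% binomial intervals. The young AA465934 share rises from 4.1% to 70.4% with depth and the old one stays at or below 5.42%, and the young Gm17167 share peaks at 7.22%.

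Both genes stood at the low end of all genes compared between the libraries. Of the 12485 genes with 200 or more UMIs in either library, 11 were at least 8-fold lower in the old library (0.0881%) and 25 at least 8-fold higher (0.2%). Both members were among the 11, which the way they were chosen fixes. Gm17167 had the second lowest log2 ratio and AA465934 the fourth, where the median gene had -0.03. The lowest ratio belonged to 4930597A21Rik, another long non-coding RNA, with 267 young and 3 old UMIs (log2 ratio -6.19), but it was in 1.3% of young cells only. The genes Serpina1a, Serpina1b, Serpina1c and Serpina1d, which encode alpha-1-antitrypsin protease inhibitors, the carbonic anhydrase gene Car4 and Lypd2 made up the rest of the lowest 10 with Gm8797. Each of these genes other than Gm8797 was found in 0.437% to 1.05% of young cells. In Serpina1b, 1 young cell held 26.2% of the UMIs.

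AA465934 was more widely detected than most of these. Of 11212 genes with 10 or more young UMIs in at least 5 groups, 2 were at least 8-fold lower in the old library (0.0178%), AA465934 and Gm8797. Gm8797 (ENSMUSG00000103034), which RefSeq lists as a pseudogene at chr3:5750893-5751295, was found in 57.9% of young and 9.97% of old cells (log2 ratio -4.17) and was lower in 11 of 11 groups. By a second count, 11 of 11858 genes (0.0928%) were lower with intervals apart in every group that held 10 or more of their young UMIs, with at least as many such groups as Gm17167 has. These were both members, Gm8797, Gm47283, Snorc, Vpreb3, Cd79a, Fzd9, Mpped2, Myb and Actb. Both counts limit the groups by young UMIs only, and the second takes its number of groups from Gm17167. The place of the members in them therefore follows in part from how they were chosen. Gm47283, a further gene model, went from 37.3% to 13.4% of cells (log2 ratio -2.36), and the actin gene Actb by a log2 ratio of only -0.32. At the other end, the highest 10 ratios were those of 7 immunoglobulin genes, led by Iglc1, together with Jchain, the milk protein gene Csn3 and Oosp1.

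**Figure D3:**
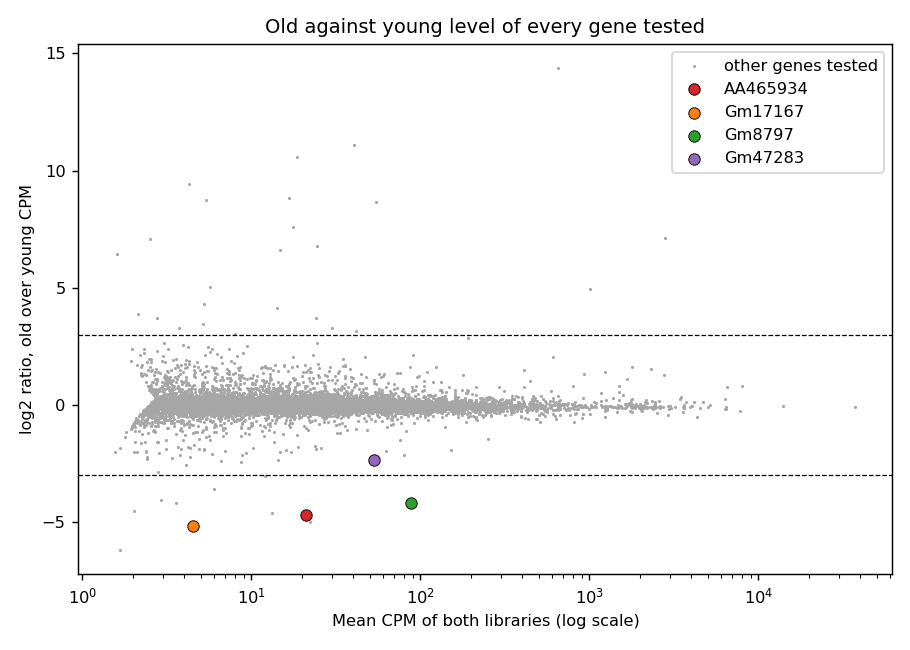
Log2 ratio of old over young CPM (vertical axis) against the mean CPM of both libraries (horizontal axis, log scale) for the 12485 genes tested (grey), with dashed lines at 8-fold; AA465934, Gm17167, Gm8797 and Gm47283 are coloured. AA465934 (-4.68), Gm17167 (-5.19) and Gm8797 (-4.17) are among the 11 genes below the lower line. The rest of these are grey, such as 4930597A21Rik (-6.19) and Serpina1a (-5.00).

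Apart from 4930597A21Rik, a list of better-known non-coding RNAs was compared. Of 29 such non-coding RNAs, 26 were in the matrices and 23 had enough UMIs. None of these 23 was 8-fold lower or higher, where 0.0881% and 0.2% of all genes tested were. Their median log2 ratio was -0.06, with a range from -0.54 for Rian, an imprinted RNA, to 1.13 for Snhg11, a small nucleolar RNA host gene. Markers of sex and the 1 substrain gene listed, Nnt, were close to alike in the libraries. The Y-linked genes Ddx3y, Eif2s3y, Kdm5d and Uty had log2 ratios from -0.23 to 0.00, and Ddx3y was found in 40.6% of young and 49.7% of old cells. Xist, the RNA of the inactive X chromosome, had 45 and 40 UMIs. Nnt, a mitochondrial transhydrogenase gene that is partly deleted in C57BL/6J mice and intact in C57BL/6N, had 307 and 242 UMIs (log2 ratio -0.06). Whether these UMIs came from the part that can be deleted was not tested. These genes do not cover the genome, and the genotype at AA465934 or Gm17167 was not tested.

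The genes beside AA465934 on chromosome 11 were not lower with it. Slfn14, a ribosome-associated nuclease gene active in blood cells, had 111 young and 113 old UMIs (log2 ratio 0.31, -0.08 to 0.70). Farther away, Ap2b1, a clathrin adaptor subunit, had a log2 ratio of 0.06 and the long non-coding RNA AI662270 had one of 0.04. Among the 20 rows on each side of AA465934 in the feature list, a window chosen after the data were seen, 22 genes had enough UMIs. None was 8-fold lower, but of all 12485 genes only 0.0881% were, so this count says little about the stretch. The log2 ratios of these 22 genes ran from -0.50 to 2.64 with a median of 0.08. Ccl5, a chemokine gene of T cells and other leukocytes, was at the top. Those rows with a RefSeq position were all on chromosome 11.

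Gm17167 could be placed only through the rows around it. Of its 40 flanking rows, 33 had a RefSeq position and all of these were on chromosome 4, in a run of genes named as copies of one another, such as Ccl21a and Ccl21b, Ccl27a and Ccl27b (chemokines) and Fam205a2, Fam205a3 and Fam205a4. In that run 14 of the 40 rows had no UMI in either library. The 10 with enough UMIs had log2 ratios from -0.37 to 0.31, among them Ccl19, a lymphocyte-attracting chemokine, with 8282 young and 5482 old UMIs. Reads that match several copies equally well are left out of such counts, so the level of a gene in a run of copies is uncertain, and whether Gm17167 has a near-identical copy was not tested.

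**Figure D4:**
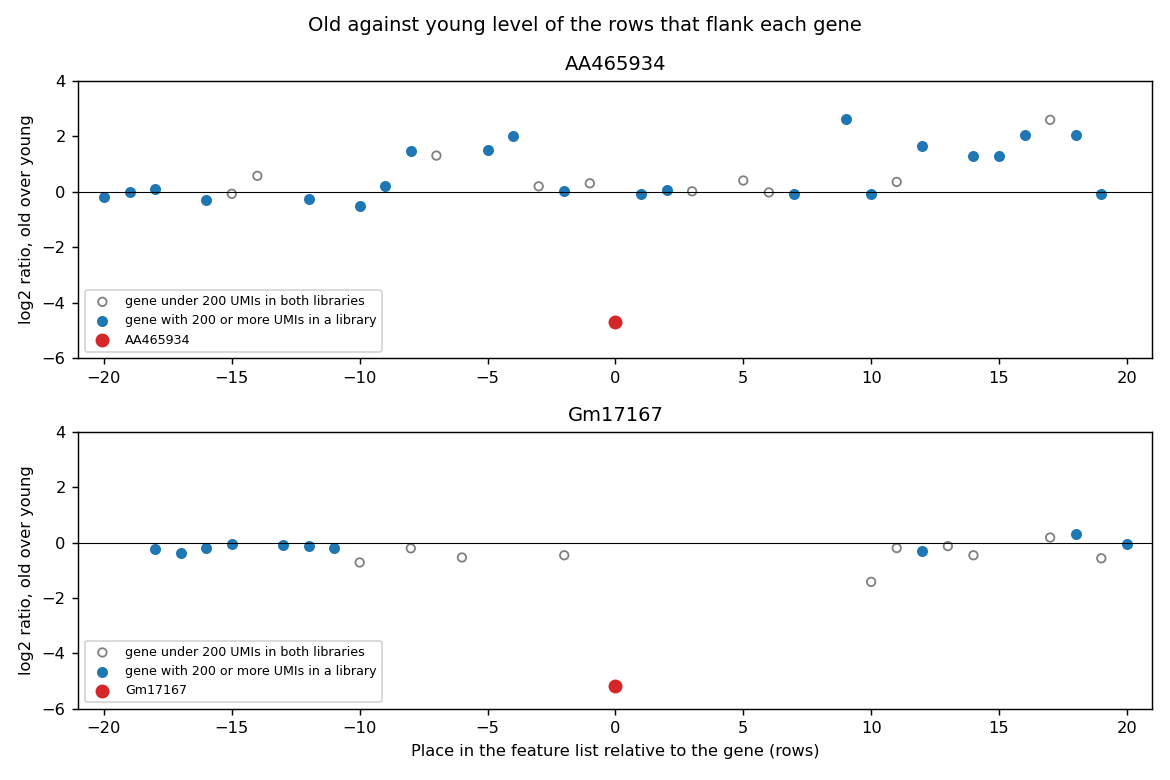
Log2 ratio of old over young level (vertical axis) for AA465934 (top) and Gm17167 (bottom) in red and for the rows up to 20 places before or after each in the feature list (horizontal axis), filled where a gene had 200 or more UMIs in a library; rows with 3 or fewer UMIs in both libraries are not drawn. No filled flanking gene lies below -0.50, against -4.68 and -5.19 for the red points.

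The genes whose young levels ranked most like AA465934 over the 11 groups kept their levels in the old library. Meaf6 and Pdik1l each had a Spearman correlation of 0.964 with it, and Ints13, Haus4 and Zc3h13 one of 0.955, and their old to young log2 ratios ran from -0.16 to 0.08. For Gm17167 the nearest were the serine protease inhibitor gene Serpina3m (0.97), the laminin gene Lamb1 (0.925), Hbp1 and Atrnl1 (0.92) and Foxj2 (0.916), with log2 ratios from -0.49 to 0.51. The points are cell groups of 1 library and share its depth. The members themselves had a correlation of 0.0137 with each other. In single young cells, Gm17167 was found in 4.81% of cells with AA465934 (3.97 to 5.78) and 5.32% of cells without it (4.83 to 5.84), which overlapped, and 108 cells held both. In stromal-like cells these shares were 9.87% (7.5 to 12.7) and 8.26% (7.23 to 9.39), and after thinning all cells 2.35% (1.32 to 3.85) and 2.13% (1.83 to 2.45), which overlapped too. No old cell held both.

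Some other readouts of the young cells went with the level of a gene, and for others the intervals overlapped. In erythroid-like cells with at least 3 of 5 cycling markers AA465934 stood at 95.4 CPM (88.7 to 102), against 46.3 (33.9 to 61.8) in those with fewer. The old library kept that order, with 46 UMIs or 5.56 CPM (4.07 to 7.42) in cycling and 1 UMI or 0.839 CPM (0.0212 to 4.68) in other erythroid-like cells, whose intervals overlapped. In young B-lineage-like cells the same split gave 91.1 CPM (75.8 to 108) in cycling and 72 CPM (51.7 to 97.7) in other cells, which overlapped. When erythroid-like cells were split at their median share of hemoglobin UMIs, and levels were taken per 1000000 UMIs outside hemoglobin, the young level was 68 (61.5 to 74.9) below and 141 (128 to 156) above the split. The UMIs themselves numbered 406 and 403 in 177 cells each, and the share of cells with one was 83.1% (76.7 to 88.3) below and 74.6% (67.5 to 80.8) above, so the higher level went with a smaller total of UMIs outside hemoglobin. In the old library these were 3.92 (2.46 to 5.94) and 7.45 (4.82 to 11), which overlapped. Gm17167 in young fibroblast-like cells stood at 21.8 CPM (17.8 to 26.4) in the 25% of cells with the fewest CD24 antibody counts. In the 25% with the most it stood at 6.29 CPM (4.65 to 8.32). The shares of these cells with a UMI were 8.04% (6.15 to 10.3) and 4.91% (3.42 to 6.79), which overlapped, from 105 and 49 UMIs. In stromal-like cells the levels were 20.3 CPM (15.9 to 25.7) and 11.7 CPM (9.32 to 14.6). But the share of stromal-like cells with a UMI was 6.86% (5.2 to 8.86) and 8.64% (6.77 to 10.8), from 71 and 81 UMIs. Osteoblast-like cells had 0 and 3 UMIs. AA465934 had 27.2 and 30.7 CPM in the same fibroblast-like cells, and the intervals overlapped. Antibody counts rise with the size and depth of a cell, and the part of depth in this was not tested.

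The barcodes that both libraries contained held AA465934 more often than the rest in the old library, on few counts. Over all barcodes, removed ones included, 3 of the 25 shared sequences held it in the old library (12%, 2.55 to 31.2), against 98 of the other 6704 (1.46%, 1.19 to 1.78). In the young library 9 of the 25 held it (36%, 18 to 57.5), against 19.9% (19.2 to 20.6) of the others, which overlapped. Of the 3 barcodes, 1 was also positive in the young library. Leaving the shared barcodes out gave a log2 ratio of -4.70. No shared barcode held Gm17167 in the old library.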

How the data were processed

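CITE-seq reads RNA and antibody tags from the same cells. The authors deposited 10x matrices of raw UMI counts, 1 per age, with RNA and CD24 antibody counts together. The file headers name Cell Ranger 6.1.1, and the submitters' notes name build mm10. Cell Ranger counts uniquely mapped reads of the gene's strand once per UMI, so reads from near-identical copies are lost. All columns were mapped to a group.

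Here, in Python 3.11.15 with NumPy 2.4.6, SciPy 1.17.1, pandas 2.3.3 and scanpy 1.11.5, barcodes with at least 200 genes and at most 20% mitochondrial UMIs were kept. Doublets were kept in the main values, and Scrublet called 2.67% of young and 1.02% of old cells. A cell joined the group with the most markers at 2 or more UMIs, needing at least 3 markers and more than any other group. Of 17 lists, 11 gave 25 or more cells in both libraries, and 1069 young and 430 old cells lay at the limit of 3 markers. No group had more markers of another than of its own among its top 10 genes. Levels are UMIs per 1000000 RNA UMIs (CPM), with exact Poisson and Clopper-Pearson intervals of 95% and, for a ratio, the exact conditional binomial interval. A sum of 0 was set to 3 UMIs for a fold. With 1 mouse per age no test between ages was possible. The ratio step was tested on simulated data. Genes were compared where either library had 200 or more UMIs.

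Genes were named as members, members of fixed lists, the 10 lowest and 10 highest ratios, the 5 most alike per member over the groups, and the 5 RefSeq neighbours on each side of AA465934. One neighbour is not reported here. The others, in the count of genes lower in every group, and the flanking rows, were named after values were seen. RefSeq held 1 of the 2 members. The members and lists were chosen with earlier results of these data known.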

Additional observations from a re-analysis of the deposited data

Results flagged for a closer look

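Transcripts of both genes were also found in barcodes that the filter on genes and mitochondrial UMIs removed. Elsewhere these barcodes enter the report only in the counts over shared barcodes and in the alternative values that used every barcode. The 1308 removed young barcodes held 26 UMIs of AA465934 (16.3 CPM, 10.6 to 23.8) and the 1122 removed old barcodes held 6 (3.2 CPM, 1.17 to 6.96), so the old level was 5.09-fold lower there (2.05 to 15.1). The removed young barcodes held 12 UMIs of Gm17167 (7.5 CPM, 3.88 to 13.1) and the removed old barcodes held none. With the empty old sum set to 3 UMIs, the old level was 4.7-fold lower there (3.26 or more).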

How the results depend on the processing

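Of 33 alternative values, 24 stayed close to those reported, 9 moved and 0 reversed. Thinning every cell to 2000 UMIs gave log2 ratios of old over young of -4.16 for AA465934 and -6.89 for Gm17167, the latter resting on 1 old UMI, and young shares of 6.87% and 2.14%. Using every barcode gave young shares of 19.9% and 4.7%. Leaving out erythroid-like cells, chosen after seeing the data, gave -5.07 for AA465934. The count of genes past 8-fold, 36 of those tested, became 70 (22 lower and 48 higher) with a minimum of 50 UMIs and 14 (6 lower and 8 higher) after thinning. The number of groups with a lower old level stayed at 10 for AA465934 and 4 for Gm17167 under the stricter and looser marker rules and the limit of 10% mitochondrial UMIs. No replicate could be left out with 1 library per age. No paired analysis was possible because each age had 1 library and no test was made. Depth limits the old level of Gm17167, which rests on 16 UMIs in all.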
